A study of Mus musculus with 4 samples.

Results

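Upper-layer projection neuron regulators are transcription regulators that mark, or act in, the superficial neurons of the isocortex. The set held 8 genes: Cux1, Cux2, Rorb, Mef2c, Pou3f1, Pou3f2, Pou3f3 and Lmo4. Every probe set that the platform's gene table assigns to one of these symbols alone was taken, with no use of measured values, which gave 28 of the 45037 probe sets on the array. Cux1 had 9 probe sets, Mef2c 5, Cux2, Rorb and Pou3f2 3 each, Pou3f1 and Pou3f3 2 each, and Lmo4 1. The tissue was hippocampus of mice at postnatal day 2, dissected from animals labelled ZBTB20 knockout and from littermates labelled wildtype or control. Total RNA was measured on 4 Affymetrix arrays, 2 per group. Strain, sex, the deleted part of Zbtb20 and how many animals went into an array are absent from the labels used here. The p-values therefore measure only the spread between these arrays, pooled largely over probe sets, and that spread may be technical. The study asked which genes depend on ZBTB20, a zinc finger transcription factor, during hippocampal development.

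In the isocortex, neurons are born in sequence and settle inside-out, so that the last-born projection neurons fill the upper layers and connect mostly to other cortical areas. CUX1 and CUX2 carry CUT domains and a homeodomain and shape the dendrites and spines of these neurons, while POU3F2 (Brn2) and POU3F3 (Brn1) act earlier, in their production and migration. RORB is a nuclear receptor of layer 4, MEF2C a MADS-box factor of neuronal differentiation and synapse number, and LMO4 a LIM-only adaptor without DNA binding of its own. None of these genes is confined to the isocortex: POU3F1 (Oct6) marks the CA1 field of the hippocampus, and Mef2c is also expressed in interneurons, microglia and endothelium.

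The arrays came on 2 scales, which limits how they can be compared. The trimmed mean signal was 498 (control) and 497 (knockout) in replicate 1, and 158 and 156 in replicate 2, so each scale held 1 array of each group. Differences are therefore given within each replicate number, subtracting the control-labelled array from the knockout-labelled one. Pair 1 stands for the arrays numbered 1 and pair 2 for those numbered 2. Each is the difference of log2(signal + 32.56), which understates changes of dim probe sets, and it sets 1 array against 1 array without a p-value. Ratios are of the deposited signals, knockout over control. Zbtb20 itself did not settle the genotype labels: of its 9 probe sets, 3 were lower on the knockout-labelled array in pair 1, 2 in pair 2 and 0 in both, and their place relative to the deleted part is not stated in the labels. Whether the labels of a pair were exchanged was not tested. An exchange would turn every direction of that pair, and with it one of the directions of Mef2c below. All 12 hippocampal field genes looked up passed the filter on low signal. The replicate 1 arrays also carried liver transcripts, with a summed signal over 7 liver genes of 56270 in the control and 19121 in the knockout, against 291 and 297 in replicate 2. Their part in the results was not tested.

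By the labels as given, Mef2c was higher on the knockout-labelled array at all 5 of its probe sets and in both pairs. At its brightest probe set, 1424852_at, the signal was 3121 (control) and 3747 (knockout) in replicate 1, and 749 and 1665 in replicate 2, the order in which signals are given throughout. The ratio was thus 1.20 in pair 1 and 2.22 in pair 2, and the log2 differences were 0.26 and 1.12. At 1421027_a_at the signals were 1990 and 2406 in replicate 1 and 484 and 1001 in replicate 2 (ratios 1.21 and 2.07). By these ratios, both probe sets were about 1.2 times apart in pair 1 and over 2-fold apart in pair 2.

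The other Mef2c probe sets had wider gaps in pair 1. At 1421028_a_at the signals were 900 and 1674 in replicate 1 and 151 and 280 in replicate 2, with nearly equal ratios of 1.86 and 1.85. At 1451506_at they were 1571 and 2533, then 403 and 727 (ratios 1.61 and 1.80). At 1451507_at they were 1525 and 2205, then 236 and 559 (ratios 1.45 and 2.37). The probe sets of one gene therefore differed among themselves in pair 1, from log2 0.26 to 0.87, more than in pair 2, from 0.76 to 1.14. This is not particular to Mef2c. Over all probe sets that passed the filter on low signal, the differences had an SD of 0.46 in pair 1 and 0.24 in pair 2. Of the 5 Mef2c probe sets, 3 were designed on the same source sequence, so they are not independent readings.

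**Figure D1:**
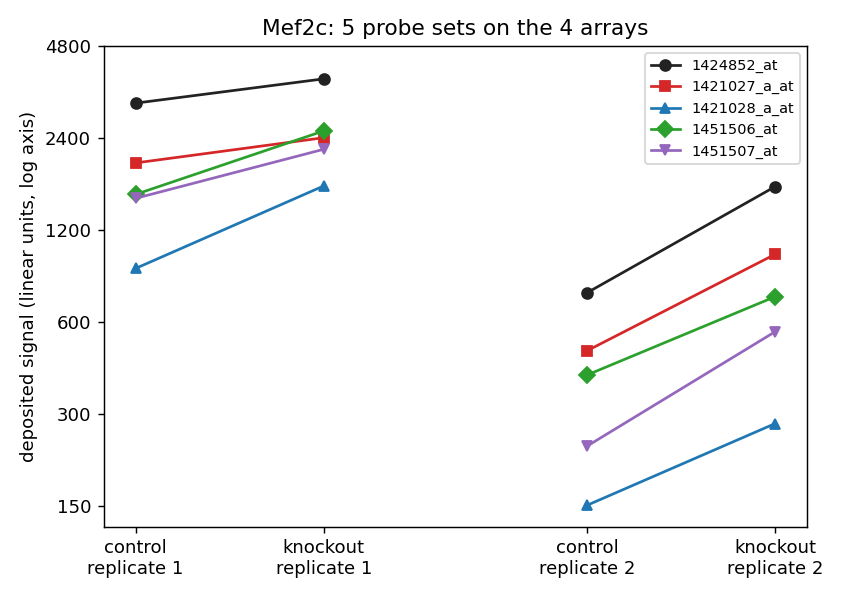
Deposited signal of the 5 Mef2c probe sets (log axis, linear units) on the 4 arrays, with a line joining the control and knockout array of the same replicate number. All 10 lines rise from the control-labelled array to the one labelled knockout; signals of different probe sets cannot be ranked against each other, and the replicate 2 arrays are on a lower scale.

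Mef2c is transcribed from several starts. RefSeq (GRCm38.p6) lists 3 in the promoter table used here, all on the plus strand of chromosome 13, and the 250 bases before each are shown because this is the gene on which the results turn. Capitals mark AGGTCA on either strand, the half-site of ROR receptors, the family of Rorb; on the strand printed it reads TGACCT.
Mef2c start A, chr13:83503784-83504033: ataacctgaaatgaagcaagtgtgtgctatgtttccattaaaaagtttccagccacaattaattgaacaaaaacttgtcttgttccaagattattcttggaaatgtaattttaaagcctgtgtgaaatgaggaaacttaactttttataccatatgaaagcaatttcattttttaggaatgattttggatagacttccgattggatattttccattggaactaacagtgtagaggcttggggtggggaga
Mef2c start B, chr13:83523406-83523655: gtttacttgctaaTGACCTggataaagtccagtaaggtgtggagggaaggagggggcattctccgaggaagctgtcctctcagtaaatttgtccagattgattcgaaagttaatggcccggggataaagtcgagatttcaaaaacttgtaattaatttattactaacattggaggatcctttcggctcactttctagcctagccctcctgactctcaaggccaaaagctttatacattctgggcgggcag
Mef2c start C, chr13:83573357-83573606: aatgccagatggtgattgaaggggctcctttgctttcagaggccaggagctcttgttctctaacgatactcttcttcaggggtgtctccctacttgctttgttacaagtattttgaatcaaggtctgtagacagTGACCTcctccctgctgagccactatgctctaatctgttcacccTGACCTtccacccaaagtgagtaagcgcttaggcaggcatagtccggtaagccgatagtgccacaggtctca
The half-site was found before starts B and C and not before start A. Of the 13 windows of the member genes 2 hold it, both of Mef2c, against 14.0% of the 32851 windows of this length in the table. The member count is thus near the share of all windows. Such a match is a description of letters and not a binding site. The POU octamer (ATGCAAAT) was in 1.6% of windows, and the MEF2 motif, searched as a pattern that allows alternative letters at some positions, in 2.92%. Both were found in 0 of the 13 windows of the member genes, on either strand. ATCGAT, a motif of CUX proteins (0.728%), was found in 1 of them, before a start of Cux2. In the windows of Mef2c the ROR half-site was the only one of these motifs found. The 13 windows covered 7 of the 8 genes, all but Pou3f1. The sources used here do not say which start each probe set reads.

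The size of the Mef2c difference was compared with that of all probe sets. Here 1.5-fold stands for log2 0.58 on the scale of log2(signal + 32.56). After the filter on low signal, 27022 probe sets remained, among them 27 of the 28 members. Over 1.5-fold higher in both pairs were 2 Mef2c probe sets, 1421028_a_at and 1451506_at, and 0 other members, against 7 of all probe sets kept (0.0259%). In pair 2 alone all 5 Mef2c probe sets were over 1.5-fold higher, against 1.07% of all kept, and in pair 1 alone 2 of the 5, against 6.25%. Of the 417 genes with 5 or more kept probe sets, 6 were higher at every one in both pairs (1.44%), and 2 were lower at every one (0.48%). Mef2c had the widest smallest difference of those 6, log2 0.26, followed by Srek1 at 0.09. This comparison across genes was chosen after the values of Mef2c were seen.

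In limma's test across all probe sets and all 4 arrays, no member passed. The planned fit, which had no term for the replicate number, called 0 of 27 members and 0 of 27022 probe sets (0%) at an adjusted p of 0.05, and gave 0 members and 5 probe sets (0.0185%) an unadjusted p under 0.05. Its error holds the gap between the 2 scales. For 1424852_at it estimated log2 0.69 ± 1.82 (SE, n = 2 per group). In this fit limma took the SE wholly from the spread of probe sets of like signal (infinite prior degrees of freedom). It is not the spread of that probe set's own values. With the replicate number as a block, which takes up that gap, the estimate at the same probe set was 0.69 ± 0.23, and limma again called 0 members and 0 probe sets. The blocked SEs and p-values also rest mostly on pooled variance. Each probe set gave 1 residual degree of freedom, and 5.98 were borrowed from all probe sets. In the blocked fit 5 of 27 members had an unadjusted p under 0.05, against 1.22% of all probe sets, and these were the 5 probe sets of Mef2c. Their limma estimates ran from 0.63 to 0.83 and their unadjusted p from 0.00185 to 0.0203, with an adjusted p of 0.9999 for each. The other members had unadjusted p-values from 0.0758 upwards. The Mef2c difference thus did not pass the correction for the number of probe sets. An exact permutation test of 2 arrays against 2 could not go below a two-sided p of 0.333.

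Cell types other than projection neurons also express Mef2c, and their marker genes were looked up beside it. Of 7 measured microglial genes, 4 had the higher signal on the knockout-labelled array in pair 1 and 1 in pair 2, with medians of log2 0.01 and -0.20. Their summed signal was 4589 and 4328 in replicate 1 and 1428 and 1221 in replicate 2. Of 6 endothelial genes, 2 were higher in pair 1 and 3 in pair 2 (medians -0.31 and 0.01), with sums of 2809 and 2940, then 935 and 917. Of 9 genes of GABAergic interneurons, 8 were higher in pair 1 and 0 in pair 2 (medians 0.29 and -0.82). Their sum was 10531 and 13828 in replicate 1, and 4295 and 2418 in replicate 2. The part of these cell types in the Mef2c result was not tested. Choroid plexus genes, markers of an epithelium in the ventricles, mostly had the same direction as Mef2c: 5 of 6 were higher in both pairs and 1, Otx2, was lower in both, with medians of 0.65 and 0.46. Their summed signal was 63626 and 75935 in replicate 1 and 3815 and 9613 in replicate 2. Most of it was Ttr, with 62551 and 74106, then 3505 and 9232 (log2 0.24 and 1.39). The other genes higher in both pairs had pair 2 differences from 0.38 to 0.53. The part of choroid plexus in the Mef2c result was not tested. Of the hippocampal field genes 6 of 12 were higher in both pairs (medians 0.14 and 0.06), and of radial glia and astrocytes 0 of 7, of the oligodendrocyte lineage 2 of 6 and of the thalamus 0 of 5. Of all 12581 genes, 22.4% were higher in both pairs. In lists this short, 2 of 6, 0 of 7 and 0 of 5 lie near that share. Of all kept probe sets, 47.9% were higher in pair 1 and 55.1% in pair 2. In a bulk tissue, more cells of a type and more RNA per cell cannot be told apart.

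The POU factor genes had 0 probe sets over 1.5-fold higher in pair 2 on the scale of log2(signal + 32.56), against 1.07% of all kept. With so few probe sets, a count of 0 does not set these genes apart from the rest. It also depends on the pseudocount. By the deposited signals, Pou3f2 1457734_at and 1453478_at had pair 2 ratios of 1.52 and 1.62. Pou3f1 had a signal of 1407 and 2078 in replicate 1 and of 1000.5 and 1137 in replicate 2 at its brighter probe set, 1460038_at, with log2 differences of 0.55 and 0.18. At 1422068_at the signals were 1083 and 976, then 134 and 135, so that the second probe set was near equal or lower (-0.15 and 0.01). The probe sets of this CA1 gene therefore disagreed in pair 1. The pair 2 difference at 1422068_at changed sign under quantile normalization and when arrays were centred on their 75th percentile.

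Pou3f3 was near equal in pair 1 and higher on the knockout-labelled array in pair 2. At 1435197_at the signals were 4614 and 5170 in replicate 1 and 590 and 810 in replicate 2 (log2 0.16 and 0.44). At the dimmer 1422331_at they were 215 and 208, then 70.0 and 85.3 (-0.04 and 0.20), and the pair 1 difference changed sign with quantile normalization. Both probe sets were thus higher in pair 2, by 1.37 and 1.22 times.

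Pou3f2 was read by dim probe sets with no common direction. At 1457734_at the signals were 76.1 and 56.0 in replicate 1, below the array medians of 142 and 130, and 109 and 166 in replicate 2, above the medians of 73.8 and 75.8. Its log2 differences were -0.30 and 0.49. At 1453478_at the signals were 87.3 and 97.9, then 62.9 and 102 (0.12 and 0.49), and at 1450831_at 42.4 and 95.4, then 83.2 and 82.7 (0.77 and -0.01). The last pair 2 value changed sign when all arrays were scaled to one trimmed mean. In pair 2 Pou3f2 was therefore higher at 2 of 3 probe sets, by 1.52 and 1.62 times, and level at the third.

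The CUT homeobox genes had small differences at their brightest probe sets. Cux1 had signals of 1088 and 1045 in replicate 1 and of 181 and 172 in replicate 2 at 1451435_at, with log2 differences of -0.06 and -0.06. Cux2 had signals of 483 and 513, then 315 and 257, at 1447500_at (0.08 and -0.26). In pair 2 all 3 Cux2 probe sets and 7 of 9 of Cux1 were lower on the knockout-labelled array, by at most log2 0.26 and 0.22 in size, and the smallest Cux2 value, at 1447821_at, changed sign with scaling to one trimmed mean. That probe set had 243 and 248, then 96.45 and 96.23 (0.02 and -0.0025), and 1450181_at had 176 and 157, then 37.4 and 34.7 (-0.13 and -0.06).

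In pair 1 the Cux1 probe sets spread from log2 -0.54 at 1425611_a_at to 1.45 at 1437686_x_at, with 5 higher and 4 lower. At 1437686_x_at the signals were 47.0 and 185 in replicate 1 and 99.7 and 103 in replicate 2. Its ratio of 3.94 in pair 1 thus rested on a dim control value, and by the Affymetrix suffix _x_at some of its probes can match other transcripts. At 1441956_s_at, whose suffix marks probes shared between transcripts, the signals were 745 and 553, then 103 and 83.7 (-0.41 and -0.22). The other 5 kept Cux1 probe sets beside the brightest had pair 2 differences of at most 0.18 in size. At 1425611_a_at the signals were 341 and 225, then 46.9 and 44.5 (-0.54 and -0.04). At 1424667_a_at they were 144 and 177, then 55.8 and 48.5 (0.25 and -0.12), and at 1424668_a_at 228 and 198, then 103 and 119 (-0.18 and 0.16). At 1434683_at they were 189 and 234, then 130 and 111 (0.27 and -0.18), and at 1437431_at 176 and 203, then 68.3 and 61.7 (0.17 and -0.10). Of these 5, 3 were higher and then lower, 1 was lower and then higher and 1 was lower in both pairs. The Cux1 probe set below the filter, 1425612_at, had 5.7 and 37.1, then 13.2 and 9.43, the dimmest reading of the members on each array. Of the Cux1 probe sets, 3 share one source sequence and another 2 share a second. The Cux1 locus also encodes CASP, a Golgi protein made from an alternative transcript, and the sources used here do not say which probe sets read it.

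Rorb and Lmo4 were lower on the knockout-labelled array in pair 1, and most of their probe sets were higher in pair 2. Lmo4 had the signals 5027 and 3405 in replicate 1 and 1476 and 1757 in replicate 2 at its probe set 1420981_a_at, a ratio of 0.677 and then 1.19 (log2 -0.56 and 0.25). The signs were thus opposite in the pairs. Rorb at 1439862_at had 182 and 96.4, then 59.0 and 80.6 (-0.73 and 0.31), and at 1425162_at 169 and 120, then 84.9 and 102 (-0.41 and 0.19). At 1455799_at, its brightest probe set, the signals were 307 and 278, then 69.1 and 64.7 (-0.13 and -0.06). The layer 4 receptor gene therefore was lower at all 3 probe sets in pair 1 and higher at 2 of 3 in pair 2, where its signals lay near the array medians.

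**Figure D2:**
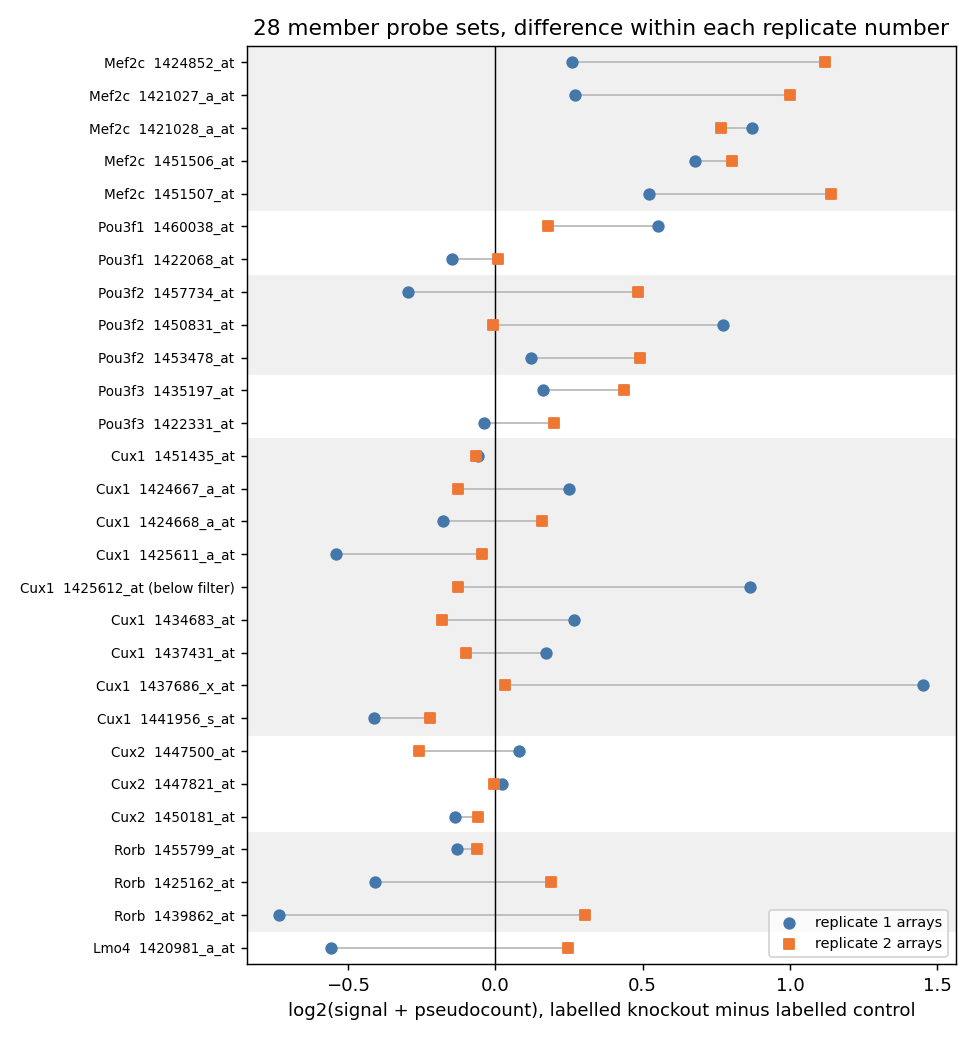
Difference of log2(signal + 32.56), labelled knockout minus labelled control, for each of the 28 member probe sets (x axis, log2), with the replicate 1 arrays as circles and the replicate 2 arrays as squares; each point is 1 array against 1 array. The 5 Mef2c probe sets lie to the right of 0 in both pairs, between 0.26 and 1.14, whereas the probe sets of most other genes lie on both sides of 0.

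Over the whole set, 9 of 27 kept probe sets were higher on the knockout-labelled array in both pairs, against 24.6% of all kept, 5 were lower in both, against 21.6%, and 13 had opposite directions, against 53.8%. Taken singly, 15 of 27 were higher in pair 1 and 16 of 27 in pair 2, against 47.9% and 55.1% of all kept. Over 1.5-fold higher were 4 members in pair 1, against 6.25% of all kept, and 5 in pair 2, against 1.07%. Those in pair 1 were 2 Mef2c probe sets, Cux1 1437686_x_at and Pou3f2 1450831_at, and those in pair 2 were the 5 of Mef2c. Over 1.5-fold lower was 1 member in pair 1, the Rorb probe set 1439862_at, against 8.99%, and 0 members in pair 2 (1.69%) or in both pairs (0.0222%). Without the 5 probe sets of Mef2c, 4 of 22 were higher in both, 5 were lower in both and 13 were opposite, and 0 were over 1.5-fold apart in pair 2. The median difference of the 27 was log2 0.08 in pair 1 and 0.16 in pair 2, against -0.02 and 0.02 over all kept probe sets, and without Mef2c it was -0.05 and 0.003. Of the 7 genes with several probe sets, 6 had probe sets of both signs in at least 1 pair, the exception being Mef2c. For Pou3f3 this rested on a pair 1 difference of -0.04. The same share over all genes with several probe sets was not computed. With the brightest kept probe set standing for each gene, 3 of 8 genes were higher in both pairs (Mef2c, Pou3f1 and Pou3f3) and 2 lower in both (Cux1 and Rorb), against 22.4% and 24.0% of 12581 genes. Cux2 was higher and then lower, and Lmo4 and Pou3f2 lower and then higher.

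**Figure D3:**
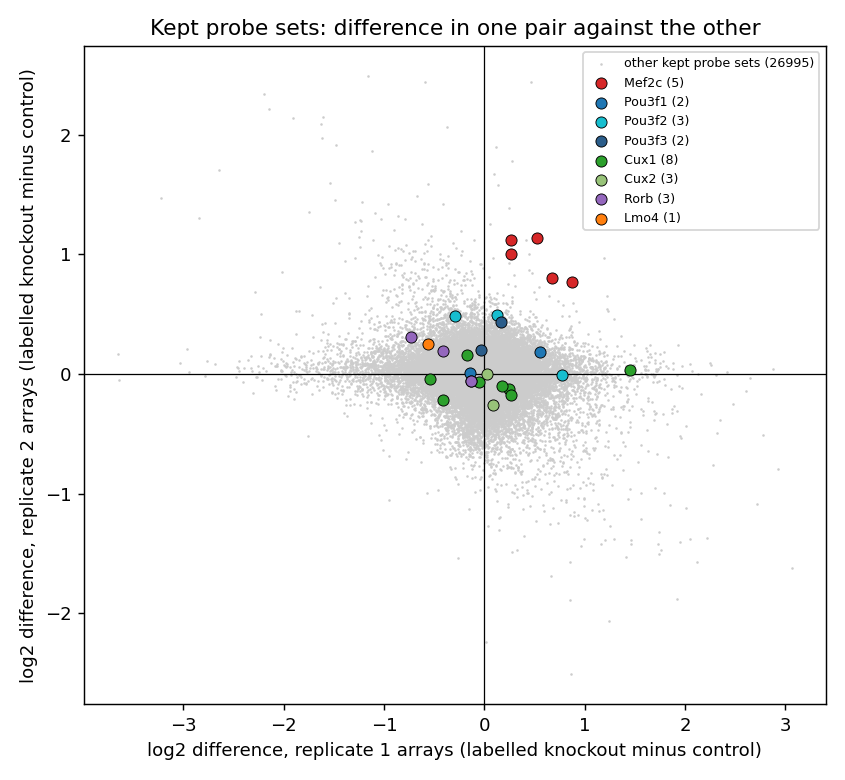
Difference of log2(signal + 32.56), labelled knockout minus labelled control, in the replicate 1 arrays (x axis) against that in the replicate 2 arrays (y axis) for all kept probe sets, with the 27 kept member probe sets coloured by gene. The 5 Mef2c points lie apart in the upper right quadrant, while the other members lie within 0.49 of 0 on the y axis.

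The closest relatives of the members that the array measured had values of their own. The values are of the brightest kept probe set of each gene, the rule used for all lists. Of the MEF2 family, Mef2a was at log2 0.14 and 0.01 and Mef2d at 0.17 and 0.0037 in the 2 pairs. Over all 5 kept probe sets of Mef2a the pair 2 differences ran from -0.08 to 0.39, with 4 higher in both pairs, and over the 3 of Mef2d from -0.05 to 0.11, with 1 higher in both. Mef2b and the POU gene Pou3f4 fell below the filter. Of the LIM-only genes, Lmo1 had signals of 1480 and 2776 in replicate 1 and 505 and 209 in replicate 2 (0.89 and -1.15), the reverse of Lmo4 in both pairs, Lmo2 was at 0.53 and -0.33 and Lmo3 at -0.08 and 0.28. Rora, the relative of Rorb, was at -0.03 and -0.11, while its 5 kept probe sets spread from -0.85 to 0.95 in pair 1. Over these 6 genes 2 were higher in both pairs and 1 was lower in both, against 22.4% and 24.0% of 12581 genes.

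Genes that work with the members or share their layer gave no common direction either. Ldb2, a cofactor that LMO and LIM-homeodomain proteins bind, had 3274 and 2533 in replicate 1 and 438 and 836 in replicate 2 (log2 -0.37 and 0.88), with the same signs at all 3 kept probe sets, while its relative Ldb1 was at 0.10 and -0.09. Satb1, a chromatin organiser with CUT-type domains, had 2501 and 3030, then 535 and 823 (0.27 and 0.59) at its brightest probe set. Of its 3 kept probe sets 1 was higher in both pairs and 2 were lower in pair 1 and then higher, with pair 2 differences from 0.59 to 0.79. Sox11, a factor of newborn neurons, was at 0.49 and 0.25, and 4 of its 6 kept probe sets were higher in both pairs. Of 8 other upper-layer genes 2 were higher in both pairs, 0 lower in both and 6 opposite, with medians of 0.06 and 0.15. Among these, Nectin3, an adhesion molecule, was at 1.70 and -0.96, and Rasgrf2 at -0.11 and 0.54. The 3 kept probe sets of Rasgrf2 ran from -1.77 to -0.11 in pair 1 and from 0.09 to 0.54 in pair 2. The 5 of Nectin3 ran from 0.19 to 1.82 and from -0.96 to -0.17. In limma's fits none of these genes was called, since 0 of all probe sets were.

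Deep-layer genes are the counterpart of the upper-layer set. Of 11 measured, 10 had opposite signs in the pairs and 8 of these went from lower in pair 1 to higher in pair 2, with medians of log2 -0.56 and 0.83, while 3 of the 8 upper-layer genes were opposite. Of all 12581 genes, 26.1% were higher and then lower and 27.5% lower and then higher. Over 1.5-fold apart in pair 2 were 10 of 11 deep-layer genes and 1 of 8 upper-layer genes, Mef2c. Of all kept probe sets, 1.07% were over 1.5-fold higher in pair 2 and 1.69% over 1.5-fold lower. Whether the lists differ was not tested. Among the upper-layer regulators, Lmo4 and some probe sets of Rorb, Cux1, Pou3f1, Pou3f2 and Pou3f3 had this order of signs, and 0 of the 5 probe sets of Mef2c had it.

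**Figure D4:**
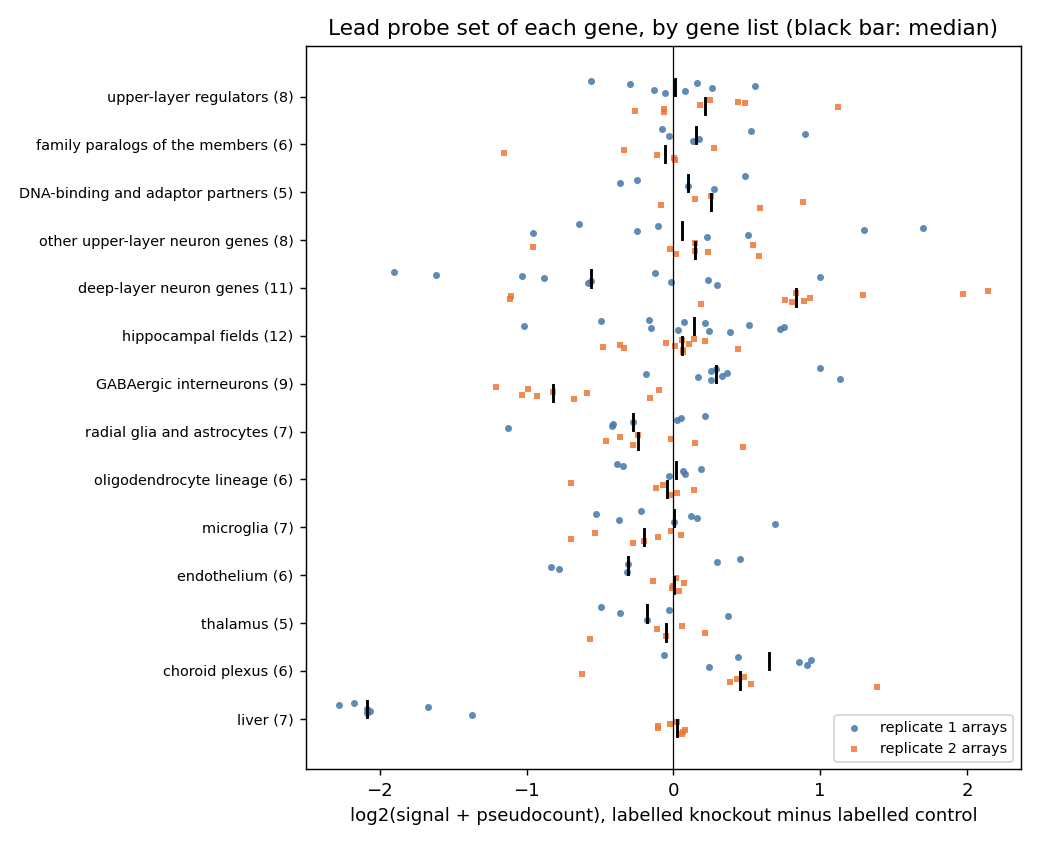
Difference of log2(signal + 32.56), labelled knockout minus labelled control, of the brightest kept probe set of each gene, grouped by gene list (number of genes in brackets), with circles for the replicate 1 arrays, squares for the replicate 2 arrays and a black bar at each median. The upper-layer regulators have medians of 0.01 and 0.21, against -0.56 and 0.83 for the deep-layer genes and -2.09 and 0.02 for the liver genes.

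Ranked by the smaller of its 2 absolute differences at the brightest probe set, whatever their signs, Pou3f2 came first of the members (log2 -0.30 and 0.49, of opposite sign). By the same measure Mef2c, at 0.26 and 1.12, came next and had one direction. The genes with the most similar pair of values were Igsf9 (-0.29 and 0.48), Ivns1abp (-0.27 and 0.47) and Pde9a (-0.32 and 0.46), by Euclidean distance over the 2 differences, at distances of 0.01, 0.03 and 0.04. Of 12581 genes, 328 lay within 0.25 of Pou3f2 by this measure, which rests on 4 arrays, so many genes share this likeness.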

How the data were processed

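The deposited values were signal intensities per probe set on a linear scale, made by the authors with MAS5 per the submitters' processing notes; version, scaling target and background settings are not given in the sources used here. Probe sets were named with the platform's gene table, in which 34945 of 45037 had 1 symbol, 932 several and 9160 none; of the named, 34741 matched RefSeq by Entrez ID. No genome build is given for the probe sets, so no coordinates are stated for them.

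Signals were transformed as log2(signal + 32.56), the pseudocount being the 20th percentile of all values, and the filter kept those whose mean log2 value lay above the 40th percentile. Testing used limma 3.58.1 under R 4.3.3 (lmFit, eBayes with trend) on all 4 arrays. Benjamini-Hochberg adjustment ran over all kept probe sets, with a threshold of 0.05. The code was also run on simulated data whose changed probe sets were alike in both pairs, which many probe sets here were not. Nothing in the labels ties the replicate numbers to animals. Because the signal scale coincides with them, the fit with the number as a block is given beside the planned one. Across probe sets, the deviations from the group means correlated at 0.837 between arrays of one number.

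The members and gene lists were chosen with earlier results of these data known. All member probe sets were named; up to 3 list genes were named by mean signal or for their relation to a member, some after their values were seen. The 16 alternatives covered normalization, pseudocount, filter, moderation, the block, the unit of test and leaving out each array. The number of arrays limits the precision.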

Additional observations from a re-analysis of the deposited data

How the results depend on the processing

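limma called 0 members and 0 probe sets under each of the 16 alternatives, the replicate block and the fits leaving out 1 array each (0 to 0) included. In those last fits the lone array of a group was assumed to vary like the others. The 5 Mef2c probe sets stayed higher in both pairs under the 3 normalizations and the 2 other pseudocounts. Their differences lay between log2 0.22 and 0.90 in pair 1 and between 0.67 and 1.29 in pair 2. The member median in pair 2 (0.16) was 0.23 with quantile normalization and 0.10 with no filter, and that in pair 1 (0.08) was 0.16 with the filter at the 60th percentile, which left 2 member probe sets lower in both pairs in place of 5 because it kept 15 members. No sign of a member probe set over 0.04 in size changed under any normalization or pseudocount. With 2 arrays per group on 2 scales, a fit that calls nothing does not show that a gene was unchanged.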
